A study of Mus musculus with 33 samples.

Results

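PRC1.6 is a variant form of Polycomb repressive complex 1, a ubiquitin ligase that places ubiquitin on histone H2A and is known for keeping genes of the germ line silent in embryonic stem cells (ESCs). Its catalytic core is RNF2 or RING1 together with the RING finger protein PCGF6 and with RYBP or YAF2. The core is joined by the MBT-domain protein L3MBTL2 and is brought to DNA by 2 factor pairs, MGA with MAX, which reads the E-box, and E2F6 with TFDP1, which reads E2F sites. HP1γ (gene Cbx3) is among the proteins purified with this complex, and HP1 proteins bind histone H3 methylated on lysine 9, the mark that SETDB1 writes. The transcripts of 10 subunit genes, Pcgf6, L3mbtl2, Mga, Max, E2f6, Tfdp1, Rybp, Yaf2, Rnf2 and Ring1, were chosen by gene symbol out of 55487 genes listed, and all 10 passed the filter on low counts in every comparison.

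The RNA was measured in 33 sequencing libraries from mouse ESCs of the C57BL/6 strain, 3 libraries for each of 11 conditions. Of these, 7 were mutants for HP1 genes, namely Hp1αΔ/Δ, Hp1βΔ/Δ, Hp1γΔ/Δ, Hp1α/βΔ/Δ, Hp1α/γΔ/Δ, Hp1β/γΔ/Δ and the triple mutant Hp1α/β/γΔ/Δ, where Cbx5 encodes HP1α, Cbx1 encodes HP1β and Cbx3 encodes HP1γ. The single and double mutants were made with CRISPR/Cas9, and the triple mutant came from Hp1α/βΔ/Δ cells whose floxed Hp1γ was removed by transfected Cre. The study took the triple-mutant RNA within days of that transfection, and reports widespread apoptosis and cell-cycle arrest after it. RNA of the single and double mutants came from constitutive knockout cells. Comparing the triple mutant with them therefore also sets a recent loss beside lasting ones. The other conditions were Setdb1Δ/Δ cells, their parental Setdb1F/F cells in which the gene is floxed but intact, and 2 sets of wild-type cells, called WT set A and WT set B here. The study deleted the floxed Setdb1 with Cre. No condition carried a drug treatment, the cells were cultured on mouse embryonic fibroblast feeders, and the study's methods call the 3 libraries of a condition biological replicates. Whether these came from separate clones is not given in the sources used here. Set A served the single mutants, Hp1α/βΔ/Δ and the triple mutant, and set B served Hp1α/γΔ/Δ and Hp1β/γΔ/Δ, so comparisons with the same set share their control libraries. The labels give set A only as wild type, whereas the study names floxed Hp1α/βΔ/Δ;Hp1γF/F cells with a control vector as the counterpart of the triple mutant, so set A is a wild-type control by its label. Its Cbx5 and Cbx1 transcripts, given below, were not lowered as they were in Hp1α/βΔ/Δ.

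Depth ran from 17330936 to 25743149 counts per library, with a median of 21522569. Each disrupted gene kept transcript but lay below its control in every library, for example Cbx1 at 99.8 to 111 CPM (counts scaled to a common library size) in Hp1βΔ/Δ against 430 to 444 CPM in WT set A, and Setdb1 at 68.5 to 71.9 CPM in Setdb1Δ/Δ against 130 to 135 CPM in Setdb1F/F. In Hp1α/βΔ/Δ Cbx1 stood at 94.7 to 98.1 CPM, and Cbx5 at 200 to 207 CPM against 478 to 489 CPM in WT set A. Summed CPM of 8 ESC markers was 1355 to 1400 in the triple mutant against 2657 to 2681 in WT set A, and 3994 to 4024 in Setdb1Δ/Δ against 5392 to 5418 in Setdb1F/F. Not every marker went with the sum. By the test used below, 5 fell in the triple mutant, 1 rose (Esrrb, log2 fold change 0.23) and 2 did not pass. In Setdb1Δ/Δ 6 fell and 2 rose, Zfp42 (0.67) and Sox2 (0.13). Markers of feeder fibroblasts summed to at most 24.7 CPM in these 4 conditions and their sum was lower in both mutants, with Lum at 0 in both controls and Postn at 0 in Setdb1F/F. Of the 6 feeder markers tested in the triple mutant 3 fell past both thresholds used below and 1 rose, Col3a1, from a mean of 0.731 to 4.39 CPM (log2 fold change 2.55), and in Setdb1Δ/Δ both of the 2 tested fell. The 5 markers of 2-cell-like cells rose from 0 in all WT set A libraries to a sum of 13.6 to 14.8 CPM in the triple mutant and from at most 0.199 to 49.7 to 54.3 CPM in Setdb1Δ/Δ. The 7 primitive endoderm markers summed to 18.6 to 21.0 CPM in the triple mutant against 7.20 to 9.71, and to 10.4 to 12.3 CPM in Setdb1Δ/Δ against 23.5 to 25.1. Against these sums, Dab2 fell in the triple mutant (log2 fold change -0.95) and Foxa2 rose in Setdb1Δ/Δ (3.19). The sum of 6 trophoblast markers was 231 to 243 CPM in the triple mutant against 107 to 117, and 10.4 to 14.2 CPM in Setdb1Δ/Δ against 44.4 to 44.8. Here Eomes fell in the triple mutant (-1.04) and Krt18 rose in Setdb1Δ/Δ (0.45). The part of these shifts in the results on the complex was not tested, and in bulk samples fewer cells of a type and less RNA per cell cannot be told apart.

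The complex reaches DNA through the E-box of MGA and MAX and the site of E2F6 and TFDP1. The 250 bases upstream of the annotated start are therefore printed for 3 subunit genes and 3 germline genes known as PRC1.6 targets (RefSeq, build GRCm38.p6, written 5′ to 3′ on the strand of the gene). These subunit genes passed both thresholds in the triple mutant or in Setdb1Δ/Δ. Ring1 passed them too but held neither motif and is not printed. Tex101 and Syce1, among the largest rises of the targets in the triple mutant, also held neither and are not printed. Capitals mark the E-box CACGTG and the E2F core, searched as TCCCGC on both strands, so that it also appears as GCGGGA; neither motif overlapped the other.
Mga (chr2:119896978-119897227, plus strand): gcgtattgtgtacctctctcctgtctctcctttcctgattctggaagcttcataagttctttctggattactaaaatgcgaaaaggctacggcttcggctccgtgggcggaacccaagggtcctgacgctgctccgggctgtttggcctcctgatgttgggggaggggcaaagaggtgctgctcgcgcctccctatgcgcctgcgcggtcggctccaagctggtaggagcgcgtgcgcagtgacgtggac
E2f6 (chr12:16810715-16810964, plus strand): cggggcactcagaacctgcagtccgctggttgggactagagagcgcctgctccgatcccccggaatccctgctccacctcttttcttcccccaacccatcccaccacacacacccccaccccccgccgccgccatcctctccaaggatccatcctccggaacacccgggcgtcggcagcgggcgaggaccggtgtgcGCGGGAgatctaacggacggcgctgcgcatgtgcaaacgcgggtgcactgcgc
Tfdp1 (chr8:13338501-13338750, plus strand): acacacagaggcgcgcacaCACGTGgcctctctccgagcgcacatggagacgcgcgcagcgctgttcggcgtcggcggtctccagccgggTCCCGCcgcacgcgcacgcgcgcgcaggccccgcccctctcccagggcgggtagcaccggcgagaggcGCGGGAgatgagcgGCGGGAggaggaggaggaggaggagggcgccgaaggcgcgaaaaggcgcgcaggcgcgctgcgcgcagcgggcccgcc
Slc25a31 (chr3:40708621-40708870, plus strand): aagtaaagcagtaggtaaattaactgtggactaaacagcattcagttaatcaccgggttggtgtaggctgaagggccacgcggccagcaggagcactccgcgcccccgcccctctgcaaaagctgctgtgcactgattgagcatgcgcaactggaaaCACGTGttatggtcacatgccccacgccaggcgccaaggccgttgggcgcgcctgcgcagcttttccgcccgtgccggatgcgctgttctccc
Taf7l (chrX:134476491-134476740, minus strand): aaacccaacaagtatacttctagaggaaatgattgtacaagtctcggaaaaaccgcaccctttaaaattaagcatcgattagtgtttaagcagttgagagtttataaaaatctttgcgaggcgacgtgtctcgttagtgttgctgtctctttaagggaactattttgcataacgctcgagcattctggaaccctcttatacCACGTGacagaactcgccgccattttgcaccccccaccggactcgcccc
Hormad1 (chr3:95559427-95559676, plus strand): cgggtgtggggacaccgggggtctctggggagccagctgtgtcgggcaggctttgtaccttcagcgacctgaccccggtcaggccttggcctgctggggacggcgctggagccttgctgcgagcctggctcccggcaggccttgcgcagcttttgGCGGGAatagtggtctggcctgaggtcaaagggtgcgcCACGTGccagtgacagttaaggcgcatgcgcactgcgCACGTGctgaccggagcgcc
The window of Mga held neither motif, that of E2f6 an E2F core, and that of Tfdp1 an E-box and 3 E2F cores. Slc25a31 (an ADP/ATP carrier of germ cells) and Taf7l (a germ-cell TFIID subunit) each carried 1 E-box, and Hormad1 (a meiotic chromosome axis protein) carried 2 E-boxes and 1 E2F core. Of 8 subunit genes matched in the table, 1 held an E-box (Tfdp1) and 3 an E2F core (E2f6, Rnf2 and Tfdp1), while of 13 germline targets matched, 8 held an E-box, 5 an E2F core and 4 both. Among all 32851 upstream windows, 6.02% held the E-box, 16.9% the E2F core and 1.45% both. These shares are per window, whereas a gene was counted if the window of any of its starts held the motif. A match describes the letters only, and no measurement of binding was made here.

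Per unit of transcript length, the subunit genes spanned more than a decade in wild-type cells. On the TPM scale (abundance per transcript length, as deposited), Tfdp1 was the highest in WT set A at 139 ± 5.52 TPM (SD, n = 3), and 5 genes lay close together from Rnf2 at 68.0 ± 9.71 to Rybp at 59.3 ± 2.57 TPM. Pcgf6 stood at 48.3 ± 1.72 TPM and E2f6 at 17.1 ± 1.07 TPM. Ring1 at 8.33 ± 1.82 and Yaf2 at 8.14 ± 0.32 TPM were the lowest, and their libraries did not separate them, so that in each paralogous pair 1 gene carried most of the transcript. In the triple mutant Mga moved to the top of this order at 206 ± 10.2 TPM, ahead of Rybp at 120 ± 2.28 and Tfdp1 at 119 ± 6.12 TPM, and Ring1 stayed lowest at 4.74 ± 1.05 TPM.

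Across the 11 conditions, Mga and E2f6 varied most and Max least. The highest condition mean was 4.54 times the lowest for Mga and 4.18 times for E2f6, against 2.79 for Pcgf6, 2.69 for Yaf2, 2.66 for Ring1, 2.63 for Rnf2, 2.13 for L3mbtl2, 2.02 for Tfdp1, 1.75 for Rybp and 1.41 for Max. When the conditions were ordered by mean, the libraries of neighbours overlapped in 4 of 10 neighbouring pairs for Pcgf6, in 5 for Mga, E2f6 and L3mbtl2, in 6 for Rybp and Tfdp1, in 7 for Yaf2 and Ring1, and in 8 for Max and Rnf2. The triple mutant was the highest condition for Mga and Rybp and the lowest for Rnf2 and Ring1, with its Rnf2 libraries overlapping the next condition. Setdb1Δ/Δ was the highest for E2f6 and the lowest for Pcgf6, L3mbtl2 and Tfdp1, although for L3mbtl2 its libraries overlapped those of Setdb1F/F.

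**Figure D1:**
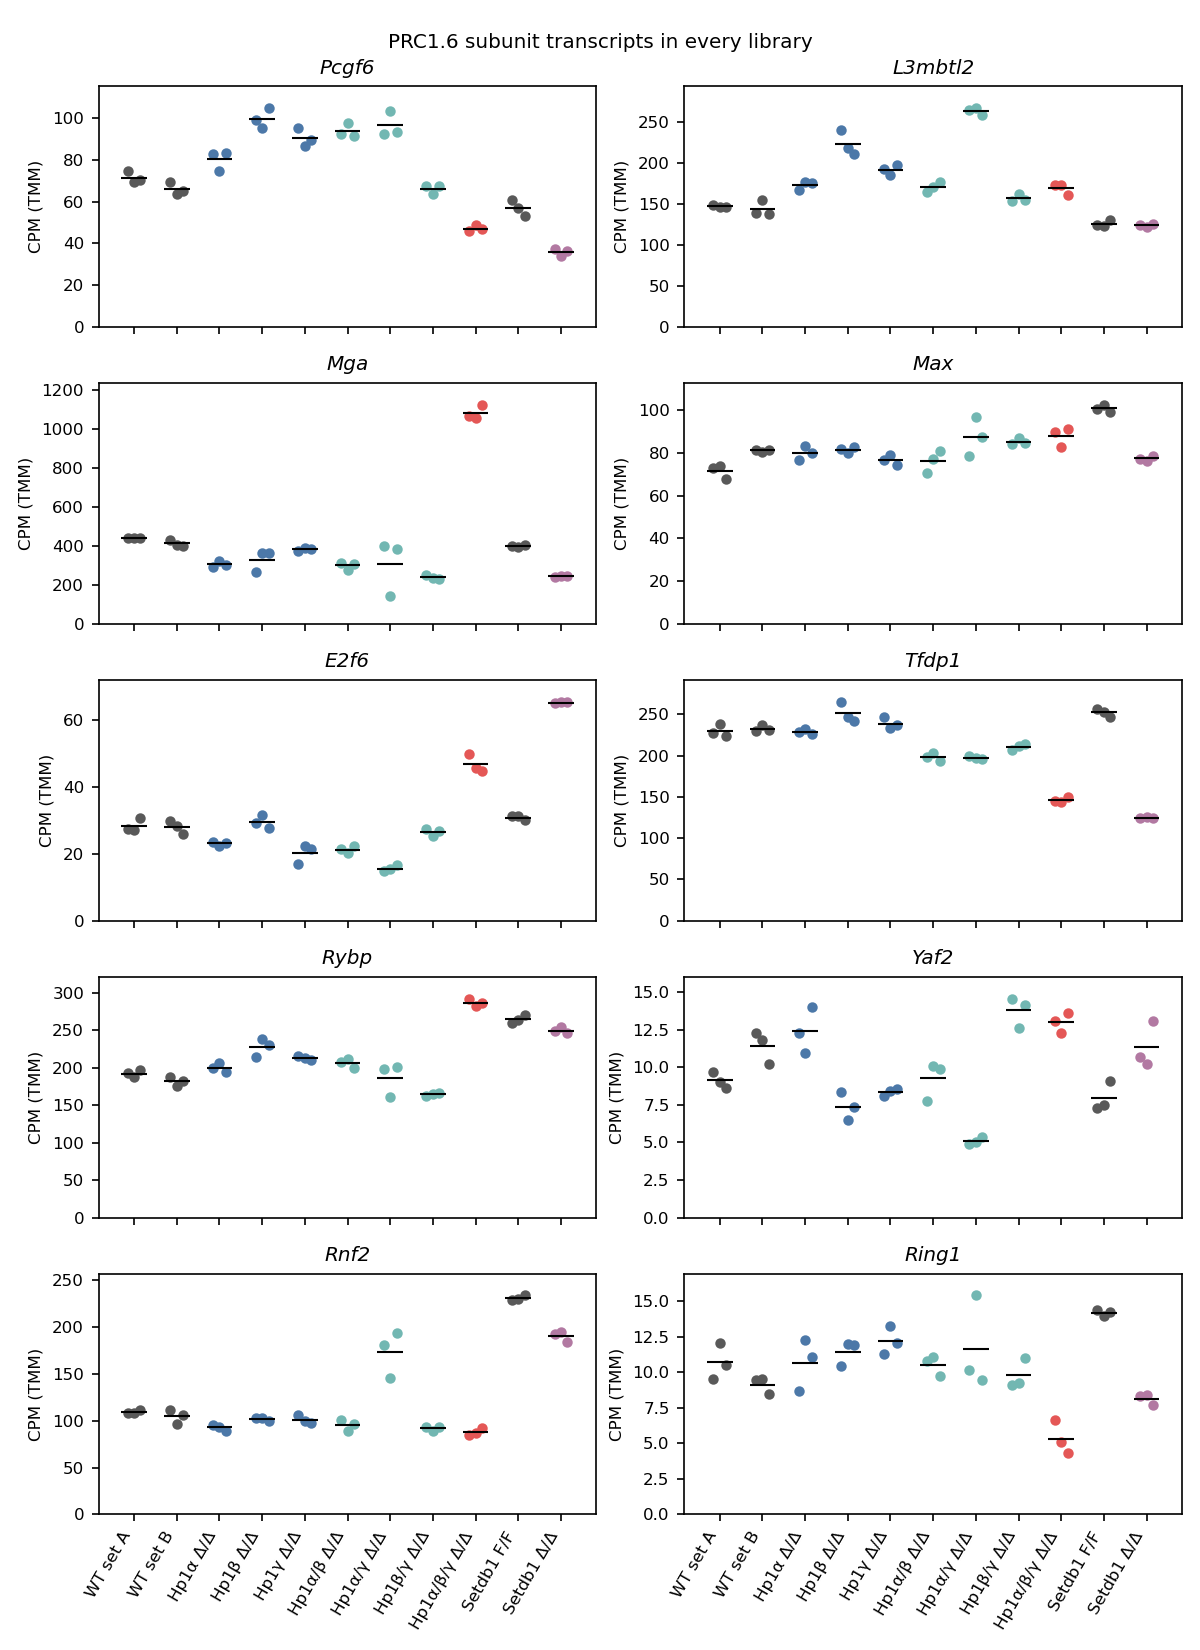
Each panel plots 1 subunit gene, with the 11 conditions along the horizontal axis and counts scaled to library size by TMM (CPM) on the vertical axis; points are libraries and the bar is the mean of 3. The triple-mutant libraries of Mga lie at 1058 to 1126 CPM while the highest library of that gene in any other condition is at 441 CPM, and 1 library of Hp1α/γΔ/Δ lies apart at 144 CPM.

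The comparison of the triple mutant with WT set A asked how the transcripts of the subunit genes stood once all HP1 genes were disrupted. By western blot, the study saw no appreciable effect of HP1 loss on the proteins of the Polycomb members it examined. The values here are of RNA alone. Mga rose and Ring1 fell below the level of every control library; these 2 genes passed both thresholds (adjusted p under 0.05 in edgeR's quasi-likelihood test and an absolute log2 fold change over 1). Among all genes tested, 42.3% passed both, 25.1% higher and 17.1% lower. At any fold all 10 subunit genes passed the adjusted p, 6 higher (L3mbtl2, Mga, Max, E2f6, Rybp and Yaf2) and 4 lower (Pcgf6, Tfdp1, Rnf2 and Ring1), where 81.6% of all genes did so, 41.7% higher and 39.9% lower. The libraries of the 2 groups did not overlap for any of the 10, as for 83.0% of all genes. Shares this near the background are no result about the subunits. Their median log2 fold change was 0.22 against 0.04 over all genes tested.

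Mga, the largest of the scaffold subunits and a MAX partner, gave the clearest change. It stood at 1067, 1058 and 1126 CPM in the triple mutant, against 440, 441 and 439 CPM in WT set A and 312, 278 and 310 CPM in Hp1α/βΔ/Δ. The 3 triple-mutant libraries lay far above all others and the groups did not overlap. The log2 fold change was 1.27 (SE 0.025, adjusted p = 2.42e-19 in edgeR), a 2.41-fold rise over WT set A, and 1.82 (SE 0.042, adjusted p = 1.28e-15) over Hp1α/βΔ/Δ, a 3.53-fold rise. The gene lies at chr2:119897228-119969581 on the plus strand (GRCm38, ENSMUSG00000033943) and its transcript model is long at 13931 bases. Against WT set A, the 319 genes tested with models of 10000 bases or more had a median log2 fold change of 0.00, with 74 past both thresholds higher and 55 lower. Against Hp1α/βΔ/Δ the median of such genes was 0.17. The part of transcript length in the rise of Mga was not tested. Of 12 other genes tested within 200 kb of Mga against WT set A, 2 passed both thresholds higher and 4 lower, with a median of -0.69.

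Pcgf6, the subunit that sets this form of PRC1 apart, moved the other way. Its libraries stood at 45.9, 48.7 and 46.9 CPM in the triple mutant, against 74.9, 69.5 and 70.2 CPM in WT set A and 92.7, 98.0 and 91.7 CPM in Hp1α/βΔ/Δ. All 3 mutant libraries were below all 6 of the others. The log2 fold change was -0.63 against WT set A (SE 0.049, adjusted p = 6.54e-10 in edgeR) and -1.03 against Hp1α/βΔ/Δ (SE 0.048, adjusted p = 7.57e-12), where Pcgf6 passed both thresholds. L3mbtl2, the MBT-domain subunit that binds nucleosomes, changed little, at 174, 173 and 161 CPM against 149, 147 and 147 CPM. Its libraries were higher than those of WT set A without overlap, by 0.17 on the log2 scale (SE 0.034, adjusted p = 0.000149), and it was not told apart from Hp1α/βΔ/Δ at -0.05 (SE 0.041, adjusted p = 0.306). The gene opposite L3mbtl2 that shares exon bases with it, Chadl, averaged 2.24 CPM.

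Among the DNA-binding partners, Max, which pairs with MGA as well as with the MYC proteins, stood at 89.8, 83.1 and 91.2 CPM against 72.9, 74.0 and 68.0 CPM in WT set A. That rise of 0.27 (SE 0.048, adjusted p = 4.51e-05 in edgeR) was small beside that of Mga, though the groups did not overlap. Max libraries of WT set B stood at 80.7 to 81.7 CPM, close below the mutant. Over the alternatives the rise ranged from 0.10 to 0.61 and did not always pass the adjusted p. E2f6, the E2F family member without a transactivation domain, stood at 49.8, 45.7 and 44.6 CPM in the triple mutant, at 27.4, 27.2 and 30.7 CPM in WT set A and at 21.3, 20.1 and 22.3 CPM in Hp1α/βΔ/Δ. Every mutant library was above every control library, by 0.69 on the log2 scale over WT set A (SE 0.065, adjusted p = 8.98e-09) and by 1.11 over Hp1α/βΔ/Δ (SE 0.068, adjusted p = 2.85e-10), the latter past both thresholds. Tfdp1, the dimerisation partner of E2F proteins, fell in the same cells, to 145, 144 and 150 CPM from 228, 239 and 224 CPM. No library overlapped and the log2 fold change was -0.68 (SE 0.032, adjusted p = 2.21e-13), while the 926 genes tested on chromosome 8, where Tfdp1 lies, had a median of 0.52 against 0.00 on the other chromosomes.

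Rybp and Yaf2 encode the paralogous subunits that bridge the catalytic core and bind ubiquitinated histone H2A. Rybp stood at 293, 282 and 287 CPM in the triple mutant against 193, 187 and 197 CPM in WT set A, a log2 fold change of 0.55 (SE 0.028, adjusted p = 9.38e-13 in edgeR). The 848 genes tested on chromosome 6, which holds Rybp, had a median of 0.38 against 0.02 elsewhere, and the role of that shift was not tested. Yaf2, present at far fewer counts, stood at 13.1, 12.3 and 13.6 CPM against 9.66, 9.05 and 8.65 CPM, a log2 fold change of 0.48 (SE 0.11, adjusted p = 0.000349). Both genes were higher in the triple mutant with no library overlapping, but the Yaf2 libraries of WT set B reached 12.3 CPM, within the range of the mutant.

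Rnf2 and Ring1 encode the paralogous RING ligases that place ubiquitin on histone H2A. Rnf2, the more abundant, stood at 84.6, 86.8 and 91.7 CPM against 108, 108 and 112 CPM, lower in every library, with a log2 fold change of -0.35 (SE 0.041, adjusted p = 2.82e-07 in edgeR). Trmt1l, on the opposite strand with exons that overlap those of Rnf2, averaged 44.7 CPM, and whether reads were assigned by strand is not given in the sources used here. Ring1 stood at 6.62, 5.06 and 4.33 CPM against 9.52, 12.1 and 10.5 CPM. The groups did not overlap and the log2 fold change was -1.03 (SE 0.16, adjusted p = 6.32e-06), but it was -0.90 without replicate 3 of the triple mutant and -0.96 without replicate 2 of WT set A, and Ring1 then did not pass the fold threshold.

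The Hp1α/βΔ/Δ libraries came from constitutive double-mutant cells, which lack the same pair of genes but are not the floxed line from which the triple mutant was made. Against them the triple mutant had 4 subunit genes past both thresholds, Mga and E2f6 higher and Pcgf6 and Ring1 lower, where 41.4% of all genes passed both. Ring1 changed by -1.02 (SE 0.15, adjusted p = 1.43e-05 in edgeR), from 10.8, 11.1 and 9.72 CPM. Of the 10, 9 passed the adjusted p at any fold, L3mbtl2 being the exception, and 80.6% of all genes did. The remaining changes were smaller, with Tfdp1 at -0.47, Rnf2 at -0.15, Max at 0.17, Rybp at 0.44 and Yaf2 at 0.45 on the log2 scale. Counts scaled by library totals alone, an alternative chosen after seeing the data, gave Rnf2 at 0.13 and L3mbtl2 at 0.23, and deposited TPM values gave Tfdp1 at 0.02.

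The scaling between libraries mattered for these comparisons. With library totals in place of TMM, the median log2 fold change over all genes in the triple mutant moved from 0.04 to 0.28, and with deposited TPM to 0.31, and the share of called genes that were higher moved from 59.5% to 71.3% and 78.4%. In that comparison every subunit gene kept its direction under both alternatives, and library totals, by construction, shift all genes of a comparison nearly alike. Relative to the median of all genes, TPM in place of TMM moved Mga from 1.24 to 1.30, Pcgf6 from -0.67 to -0.57, Tfdp1 from -0.72 to -0.54, Rybp from 0.52 to 0.69 and L3mbtl2 from 0.13 to 0.25, while Rnf2 was at -0.38 and -0.39. As absolute values, Rnf2 was at -0.10 by library totals and at -0.08 by TPM, the latter with an adjusted p of 0.591 in limma.

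**Figure D2:**
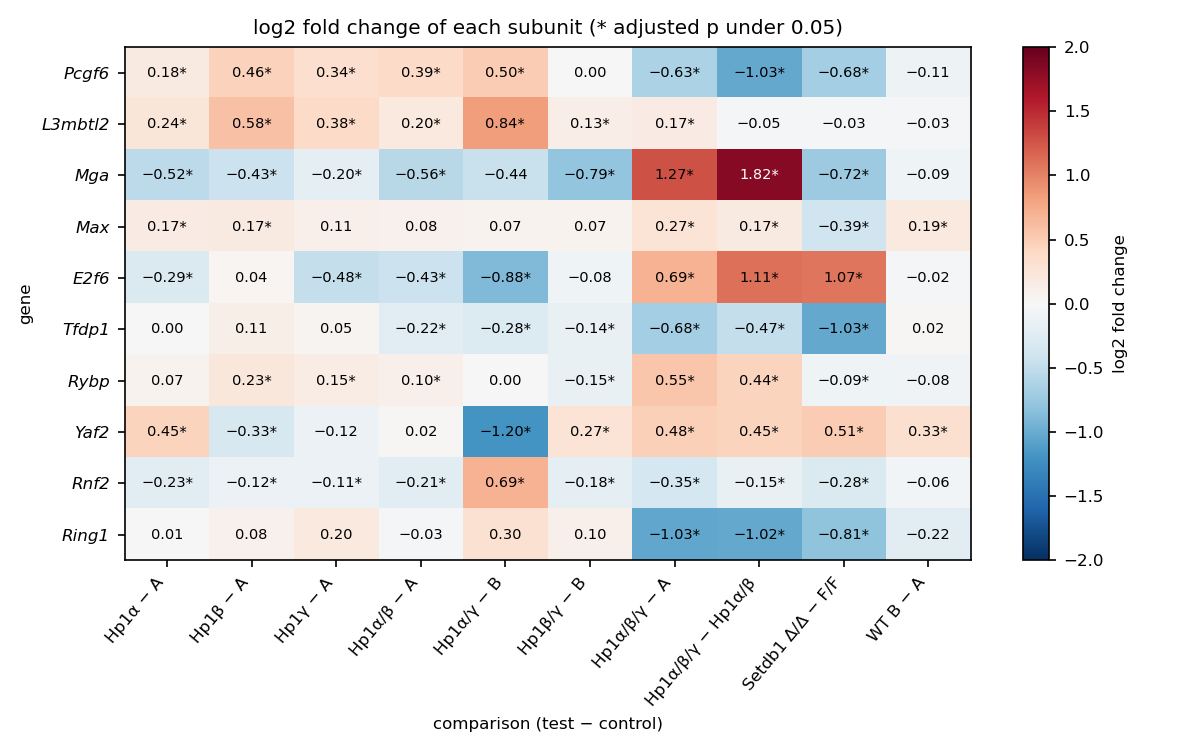
The heat map gives the log2 fold change of each of the 10 subunit genes (rows) in 10 comparisons (columns, test minus control; A and B are the wild-type sets), with colour from blue (lower) through white to red (higher) on a scale from -2 to 2, and a star where the adjusted p was under 0.05. Mga is blue in the 5 single and double mutants that pass the test and in Setdb1Δ/Δ, but red in the triple mutant, and Ring1 carries a star in both triple-mutant columns and in Setdb1Δ/Δ alone.

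The comparison of Setdb1Δ/Δ with Setdb1F/F asked the same of cells in which the gene of the H3K9 methyltransferase SETDB1 was disrupted. E2f6 rose and Tfdp1 fell past both thresholds, where 29.9% of all genes passed, 18.5% higher and 11.4% lower. At any fold 9 of 10 subunit genes passed the adjusted p, E2f6 and Yaf2 higher and 7 lower, against 78.9% of all genes (40.2% higher and 38.8% lower), and for 9 of 10 the libraries did not overlap, as for 80.2% of all genes; shares this near the background are no result about the subunits. As a description, the subunits' median log2 fold change was -0.34 against 0.01 over all genes tested.

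E2f6 stood at 64.9, 65.4 and 65.2 CPM in Setdb1Δ/Δ against 31.1, 31.2 and 29.9 CPM, the highest libraries of this gene in the series. Its log2 fold change of 1.07 (SE 0.043, adjusted p = 1.98e-13 in edgeR) was a 2.103-fold rise. Tfdp1, its partner in DNA binding, stood at 124, 125 and 125 CPM against 257, 253 and 247 CPM, with no overlap. The log2 fold change was -1.03 (SE 0.026, adjusted p = 3.09e-16), a 2.04-fold fall. The 5 other genes tested within 200 kb of E2f6 had a median of 0.27 with none past both thresholds, and of 12 tested near Tfdp1, 2 were past them higher and 2 lower.

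Mga fell in Setdb1Δ/Δ, to 240, 244 and 248 CPM from 402, 397 and 403 CPM, with a log2 fold change of -0.72 (SE 0.022, adjusted p = 2.87e-15 in edgeR). Pcgf6 fell to 37.3, 33.9 and 36.3 CPM from 61.0, 56.8 and 53.3 CPM, by 0.68 (SE 0.055, adjusted p = 3.58e-09). In neither gene did a mutant library reach the control range. L3mbtl2 stood at 124, 122 and 126 CPM against 124, 123 and 131 CPM, with overlapping libraries and a log2 fold change of -0.03 (SE 0.031, adjusted p = 0.353). Max, at 77.4, 76.3 and 78.9 CPM against 101, 103 and 99.5 CPM, fell by 0.39 (SE 0.033, adjusted p = 6.87e-09).

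Of the core paralogs, Ring1 stood at 8.32, 8.37 and 7.72 CPM against 14.4, 13.9 and 14.2 CPM, a log2 fold change of -0.81 (SE 0.087, adjusted p = 1.77e-07 in edgeR). Rnf2, at 193, 195 and 184 CPM against 228, 229 and 234 CPM, changed by -0.28 (SE 0.027, adjusted p = 3.42e-08). Both ligase genes were lower in every mutant library, and the wild-type sets, at most 112 CPM for Rnf2, lay far below Setdb1F/F for this gene, a gap between control lines that was not tested. Yaf2 stood at 10.7, 10.2 and 13.1 CPM against 7.27, 7.47 and 9.06 CPM, a log2 fold change of 0.51 (SE 0.12, adjusted p = 0.000812), and Rybp at 249, 254 and 246 CPM against 261, 263 and 271 CPM, a log2 fold change of -0.09 (SE 0.024, adjusted p = 0.00200). The paralogs Yaf2 and Rybp thus moved in opposite directions on this scale.

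Here scaling turned several directions. By library totals the median of all genes moved from 0.01 to 0.28 and by TPM to 0.40, and the share of called genes that were higher moved from 62.0% to 75.6% and 84.5%. Rybp then stood at 0.17 and 0.41 and L3mbtl2 at 0.23 and 0.48, Max turned to 0.06 and Rnf2 to 0.22 by TPM, and Mga at -0.06 (adjusted p = 0.231 in limma) and Pcgf6 at -0.17 (adjusted p = 0.0515 in limma) no longer passed by TPM. E2f6 (1.34 and 1.58), Yaf2 (0.78 and 0.91), Tfdp1 (-0.76 and -0.43) and Ring1 (-0.54 and -0.49) kept their direction and passed the adjusted p under both. Relative to the median of all genes, Mga was at -0.74 under TMM and -0.46 under TPM, Pcgf6 at -0.70 and -0.58, Max at -0.41 and -0.35, Rnf2 at -0.30 and -0.19, and L3mbtl2 at -0.05 and 0.08.

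Whether a subunit gene differed by another amount between the triple mutant and Hp1α/βΔ/Δ than between Setdb1Δ/Δ and Setdb1F/F was tested as the difference of the 2 contrasts, which share no library. The change differed for 5 of 10 subunit genes (adjusted p under 0.05 in edgeR), and 64.2% of all genes tested differed. Mga differed most, by 2.52 on the log2 scale (SE 0.049, adjusted p = 2.03e-19), since it was higher by 1.82 in the first contrast and changed by -0.72 in the second. On the TPM scale that second change was -0.06 and did not pass. Tfdp1 differed by 0.53 (SE 0.044, adjusted p = 1.32e-09), Rybp by 0.51 (SE 0.043, adjusted p = 1.41e-09), Max by 0.53 (SE 0.067, adjusted p = 5.01e-07) and Pcgf6 by -0.38 (SE 0.076, adjusted p = 0.000176). The 964 genes tested on chromosome 8, where Tfdp1 lies, had a median difference of 0.49 against -0.04 on the other chromosomes. On chromosome 6, which holds Rybp, the median of 914 genes was 0.25 against -0.03 elsewhere. The part of these chromosome-wide shifts in the differences of Tfdp1 and Rybp was not tested. For Max the difference was 0.29 on the TPM scale and did not pass there, and for Pcgf6 it was 0.03 when WT set A took the place of Hp1α/βΔ/Δ. E2f6 rose in both, and the difference was 0.00 (SE 0.077) but with WT set A in place of Hp1α/βΔ/Δ it was -0.41. No difference passed the test for Ring1 (-0.24, SE 0.17), Rnf2 (0.11, SE 0.058), Yaf2 (-0.09, SE 0.17) or L3mbtl2 (-0.04, SE 0.053), which does not show that these genes responded alike.

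**Figure D3:**
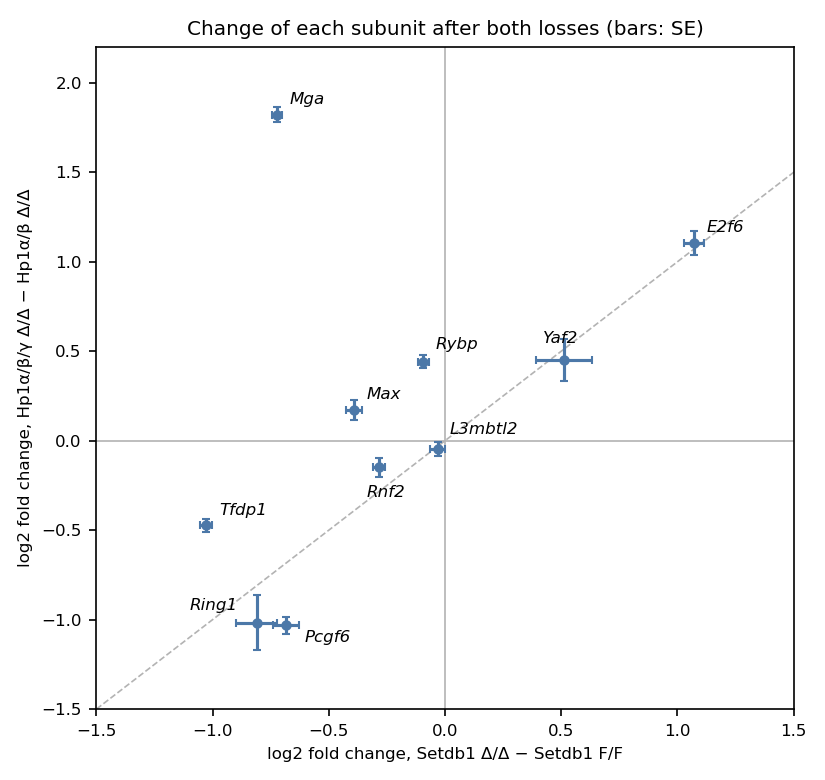
Each point is 1 subunit gene, with its log2 fold change in Setdb1Δ/Δ against Setdb1F/F on the horizontal axis and in the triple mutant against Hp1α/βΔ/Δ on the vertical axis; bars are standard errors and the dashed line marks equal change. Mga lies alone at upper left (-0.72 and 1.82), E2f6 lies near the line at upper right (1.07 and 1.11), and Ring1 and Pcgf6 are low on both axes.

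In the single mutants no subunit gene passed both thresholds in edgeR, and the background was 4.87% of all genes in Hp1αΔ/Δ, 9.10% in Hp1βΔ/Δ and 5.59% in Hp1γΔ/Δ. The count was also 0 in Hp1α/βΔ/Δ (background 8.15%) and Hp1β/γΔ/Δ (11.9%), and DESeq2 gave 0 in each of these comparisons. At an unadjusted p under 0.05 there were 7, 8, 7, 7 and 6 subunit genes, against 51.7%, 56.8%, 52.6%, 50.5% and 57.0% of all genes. At an adjusted p under 0.05 and any fold there were 7, 7, 6, 7 and 6, against 45.0%, 51.1%, 46.7%, 43.4% and 51.7% of all genes. The comparison of WT set B with WT set A, in which no mutation differs by label, gave 0 subunit genes past both thresholds (5.68% of all genes, 0 by DESeq2), 3 at an unadjusted p under 0.05 (35.7% of all genes), and 2 at any fold, Max at 0.19 and Yaf2 at 0.33 (24.8% of all genes).

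Mga was lower than wild type in each of these 5 mutants, by 0.20 to 0.79 on the log2 scale, which is the reverse of the triple mutant. It stood at 292, 323 and 301 CPM in Hp1αΔ/Δ, at 265, 362 and 363 CPM in Hp1βΔ/Δ, at 373, 389 and 385 CPM in Hp1γΔ/Δ and at 250, 237 and 228 CPM in Hp1β/γΔ/Δ. All of these libraries were below those of their wild-type set. Replicate 1 of Hp1βΔ/Δ was the lowest of its group, and without it the change there was -0.29 in place of -0.43, still past the test (adjusted p = 2.01e-08 in edgeR). L3mbtl2 was higher in all 5, at log2 fold changes of 0.24, 0.58, 0.38, 0.20 and 0.13, and Pcgf6 in 4, at 0.18, 0.46, 0.34 and 0.39, with 0.00 in Hp1β/γΔ/Δ. In Hp1β/γΔ/Δ the L3mbtl2 libraries overlapped those of WT set B and the test was passed narrowly (adjusted p = 0.0484 in edgeR). Most fits that left out 1 library did not pass there. E2f6 was lower in Hp1αΔ/Δ (-0.29), Hp1γΔ/Δ (-0.48) and Hp1α/βΔ/Δ (-0.43), and Rnf2 was lower in all 5, by 0.11 to 0.23. Over the alternatives Rnf2 stayed lower, but in each of the 5 mutants it did not always pass the adjusted p. Ring1 passed the test in none of the single or double mutants, at 8.47 to 15.4 CPM over those libraries and both wild-type sets, a range that every triple-mutant library lay below.

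Hp1α/γΔ/Δ stood apart among the double mutants. Yaf2, at 4.92, 5.04 and 5.39 CPM against 12.3, 11.8 and 10.2 CPM in WT set B, passed both thresholds with a log2 fold change of -1.20 (SE 0.14, adjusted p = 0.000582 in edgeR), a 2.29-fold fall, where 23.1% of all genes passed; against WT set A as control it did not. At any fold 6 of 10 passed, against 46.5% of all genes. L3mbtl2 was at its highest of all conditions there on the CPM scale, at 265, 268 and 259 CPM against 139, 155 and 138 CPM, a log2 fold change of 0.84 (SE 0.10, adjusted p = 0.000664), but it was 0.47 on the TPM scale and did not pass there (adjusted p = 0.0677 in limma). E2f6 was at its lowest, at 14.8, 15.3 and 16.6 CPM against 29.7, 28.3 and 25.9 CPM, with a log2 fold change of -0.88 (SE 0.11, adjusted p = 0.000920). Rnf2 stood at 181, 145 and 193 CPM against 111, 96.7 and 106 CPM, a log2 fold change of 0.69 (SE 0.15, adjusted p = 0.00807), but it was -0.01 on the TPM scale. By library totals and by TPM the median of all genes here moved from -0.02 to -0.19 and -0.29, and the share of called genes that were higher from 29.2% to 20.3% and 15.9%.

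Replicate 2 of Hp1α/γΔ/Δ differed from its 2 companions. Mga stood at 144 CPM in it against 398 and 383 CPM in the others, a log2 difference of -1.43, and the 296 genes with models of 10000 bases or more had a median difference of -0.87 in this library, against 0.07 in 14673 shorter genes. With it, Mga changed by -0.44 against WT set B (SE 0.36, adjusted p = 0.342 in edgeR), and without it by -0.08 (adjusted p = 0.170). Rnf2 and Rybp were also lower in that library, by 0.36 and 0.31, and Ring1 was higher by 0.61. Without it Rnf2 changed by 0.84, L3mbtl2 by 0.86, E2f6 by -0.83 and Yaf2 by -1.15, and Rybp moved from 0.00 to 0.13 (adjusted p = 0.0398).

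The ratio within each paralogous pair does not depend on scaling between libraries. The Rnf2 to Ring1 ratio (on the TPM scale) was 12.3, 13.3 and 15.8 in the triple mutant, from lowest to highest, against 6.46, 8.53 and 10.1 in WT set A, and 14.6, 17.7 and 18.6 in Setdb1Δ/Δ against 8.31, 9.84 and 12.2 in Setdb1F/F. In both comparisons every mutant library was above every control library, by 0.74 and 0.76 on the log2 scale, with a two-sided exact permutation p of 0.1 in each, the smallest that 3 against 3 libraries can give. The Rybp to Yaf2 ratio was 6.67, 8.19 and 8.72 in Setdb1Δ/Δ against 10.5, 11.98 and 12.8 in Setdb1F/F, lower by 0.59 without overlap (exact permutation p = 0.1). In the triple mutant it was 7.78, 8.34 and 8.57 against 6.91, 7.13 and 7.87, a difference of 0.17 with overlapping libraries (exact permutation p = 0.2).

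**Figure D4:**
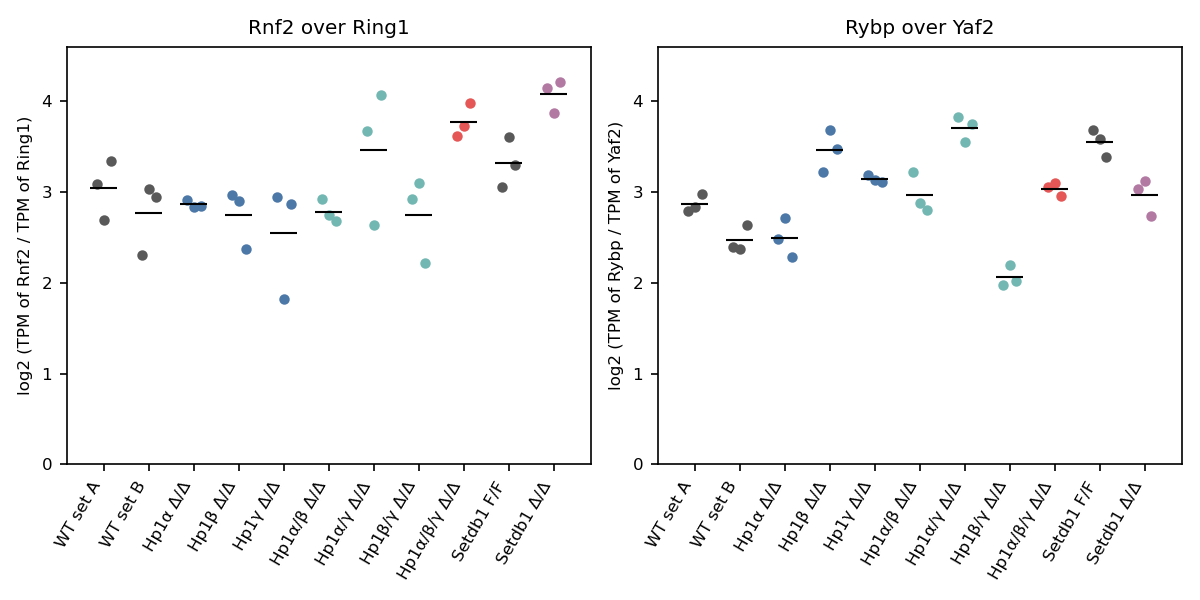
The left panel plots the log2 ratio of Rnf2 to Ring1 and the right panel that of Rybp to Yaf2 (TPM over TPM) in the 11 conditions; points are libraries and bars are means of 3. The Rnf2 to Ring1 ratio is above its control in all 3 triple-mutant and all 3 Setdb1Δ/Δ libraries, and the spread of that ratio is wide in Hp1α/γΔ/Δ, whose replicate 2 is the lowest.

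Transcripts of the proteins that associate with the complex were lower in the triple mutant. Of 8 such genes, 4 fell past both thresholds (17.1% of all genes did) and all 8 fell at any fold (background 39.9% lower), with a median log2 fold change of -1.18 against 0.04 for all genes. The HP1 genes Cbx1 (-3.27) and Cbx3 (-1.48), which the mutation targets, were 2 of the 4. Their falls were set by the genotype, yet they are part of these counts and of the median. The others were Ehmt1 (-1.62), which encodes the H3K9 methyltransferase GLP, and Wdr5 (-1.43), a WD-repeat protein of several chromatin complexes. All values of this list are on the TMM scale, and other scalings were not examined for it. Ehmt2 (-0.93), which encodes G9a, Tfdp2 (-0.83), Hdac1 (-0.65) and Hdac2 (-0.21) fell by less. In Setdb1Δ/Δ the same list had 1 gene lower past both thresholds (background 11.4%), Ehmt2 at -1.54, and 6 that fell at any fold (38.8% of all genes), with Cbx3 at -0.76, Cbx1 at -0.60, Wdr5 at -0.53, Hdac1 at -0.44 and Hdac2 at -0.14. Ehmt1 (0.21) and Tfdp2 (0.20) rose there.

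Subunits of the other PRC1 forms split in both directions in the triple mutant, with 6 of 21 past both thresholds higher and 5 lower, against 25.1% and 17.1% of all genes, and a median of 0.19. Shares this near the background are no result about these subunits. Among the rises were Bmi1 (3.02), a PCGF subunit of canonical PRC1, and Phc3 (2.99), a Polyhomeotic protein, and the largest falls were of Pcgf2 (-1.46), Cbx7 (-1.35) and Pcgf5 (-1.09). In Setdb1Δ/Δ 3 of 21 rose (background 18.5%), among them Cbx8 (2.63) and Bmi1 (1.97), none fell past both thresholds (background 11.4%), and the median was 0.02.

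Most genes of the other MAX partners fell in the triple mutant. Of 8 such genes, 6 fell past both thresholds (17.1% of all genes did) and 1 rose (25.1%), with a median of -1.54, and Mxd4 did not pass at -0.37 (adjusted p = 0.157 in edgeR). Mycn went from a mean of 303 to 38.6 CPM (-3.003), Mycl from 30.5 to 4.82 CPM (-2.70) and Myc from 53.5 to 11.7 CPM (-2.22), and the MAX-binding repressor Mxd1 rose from 6.42 to 22.0 CPM (1.75). In Setdb1Δ/Δ 2 rose, Mxd4 (2.58) and Mxd1 (1.64), and 2 fell, Mxd3 (-1.38) and Mnt (-1.07), against 18.5% and 11.4% of all genes, with a median of -0.40. Among the 7 other E2F genes 1 rose and 1 fell in the triple mutant, the atypical repressor E2f8 (2.22) and E2f2 (-1.35), where 42.3% of all genes passed in either direction. In Setdb1Δ/Δ both E2f2 (-2.24) and E2f8 (-1.52) fell, where 11.4% of all genes did.

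Germline genes known as targets of the complex were higher in both mutants. In the triple mutant 13 of 14 rose past both thresholds (25.1% of all genes did), none fell, and the median was 2.14 against 0.04 for all genes; in Setdb1Δ/Δ all 14 rose (background 18.5%), with a median of 5.46 against 0.01. Of the 14, 5 were named by the study from these libraries, so the count is not independent evidence of its direction. Tex101, a germ-cell surface protein, went from a mean of 0.405 to 13.4 CPM in the triple mutant (4.997), Slc25a31 from 0.421 to 7.39 CPM (4.09), and Syce1, a synaptonemal complex protein, from 2.72 to 21.5 CPM (2.95). Sycp3, another synaptonemal complex protein, was the gene that did not pass, at 0.13 (adjusted p = 0.284 in edgeR). In Setdb1Δ/Δ Tex101 reached a mean of 207 CPM from 0.161, Slc25a31 188 CPM from 1.05 (7.49) and Taf7l 315 CPM from 2.80 (6.81). These levels were measured beside the fall of Pcgf6 and the changes of Mga, which were opposite in the 2 mutants on the CPM scale. No relation between them was tested.

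Over the 11 condition means (n = 11, as a description), the pair of subunit genes most alike was Tfdp1 and Ring1 with a Pearson r of 0.76 on log2 CPM, followed by Pcgf6 with L3mbtl2 (0.75) and Pcgf6 with Tfdp1 (0.71), and the pair most opposed was Pcgf6 and E2f6 (-0.90). The conditions share control lines, library depth and the large shifts of the triple and Setdb1 mutants. Out of 9806 genes with a mean of at least 10 CPM, those most like Pcgf6 were Mbd3 (r = 0.98), Dctpp1 (0.98) and Bud23 (0.97), those most like L3mbtl2 were Sap30bp (0.96), Eif2b1 (0.96) and Ddx52 (0.95), and those like Mga included Hbs1l (0.96) and Spata5l1 (0.92).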

How the data were processed

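The authors deposited 8 tables with RSEM expected counts (estimated counts, 87.1% of the values whole) and TPM per gene and library; per the labels' processing notes, TopHat2 2.1.1, RSEM, edgeR and build GRCm38.p5 were used. The tables also hold the authors' fold changes and p-values, which were not used. TruSeq libraries were sequenced on an Illumina instrument. Expected counts were rounded to whole numbers and tested with edgeR 4.0.16 (R 4.3.3): TMM, filterByExpr with a minimum count of 10, the quasi-likelihood test on the 6 libraries of a comparison, and Benjamini-Hochberg adjustment over all genes tested; the difference of contrasts used 12 libraries. Calls needed an adjusted p below 0.05 and a log2 fold change above 1 in size. CPM values were scaled by TMM over all 33 libraries. DESeq2 1.42.0, other scalings and filters, and limma 3.58.1 on log2(TPM + 1) were alternatives. The edgeR fits were tested on simulated data. Coordinates are from GENCODE M21 (GRCm38), which matched 55141 of 55487 genes, and upstream windows from RefSeq.

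All 10 subunit genes and 8 associated genes were named in the text, as were, per other list, up to 3 of the largest called rises and falls in the triple mutant and in Setdb1Δ/Δ, Cbx5, Cbx1, Cbx3 and Setdb1 where the label check needed them, and the 3 genes most like Pcgf6, L3mbtl2 and Mga; Sycp3, Hormad1 and the overlapping genes were added after their values were seen. Some genes that this rule names are not reported here. Mxd4 in the triple mutant was named as the MAX partner that did not pass. Levels of Lum and Postn are given as markers at 0. The members and lists were chosen with earlier results of these data known. Samples were grouped by genotype label and title, and no pair of libraries agreed within sampling noise. Counting error bounds the precision of low genes such as Ring1 and Yaf2.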

Additional observations from a re-analysis of the deposited data

Results flagged for a closer look

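Among the subunit genes, 5 stood out because the change from Hp1α/βΔ/Δ to the triple mutant differed from the change from Setdb1F/F to Setdb1Δ/Δ in the test of the difference itself. The log2 difference (HP1 contrast minus SETDB1 contrast, 3 libraries per condition, adjusted p in edgeR's quasi-likelihood test) was 2.52 for Mga (SE 0.049, adjusted p = 2.03e-19), 0.53 for Max (SE 0.067, adjusted p = 5.01e-07), 0.53 for Tfdp1 (SE 0.044, adjusted p = 1.32e-09), 0.51 for Rybp (SE 0.043, adjusted p = 1.41e-09) and -0.38 for Pcgf6 (SE 0.076, adjusted p = 0.000176). In Mga the changes had opposite signs, 1.82 and -0.72, with every triple-mutant library above and every Setdb1Δ/Δ library below its control on the CPM scale. By TPM the change in Setdb1Δ/Δ was -0.06 and did not pass (adjusted p = 0.231 in limma), and the libraries overlapped. In Pcgf6 and Tfdp1 both changes were negative and differed in size, Max was at 0.17 and -0.39, and Rybp was at 0.44 and -0.09. The share of all genes that differed by the same test was 64.2%, so that 5 of 10 lies below the background. With WT set A in place of Hp1α/βΔ/Δ, the difference for Pcgf6 was 0.026 and did not pass (adjusted p = 0.790), and by TPM that for Max was 0.29 and did not pass. The median difference of all genes tested on chromosome 8, which holds Tfdp1, was 0.49 against -0.04 on the other chromosomes. On chromosome 6, which holds Rybp, it was 0.25 against -0.03. The part of these chromosome-wide shifts in the differences of Tfdp1 and Rybp was not tested.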

How the results depend on the processing

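Counts of called subunit genes depended mainly on the fold threshold. At an adjusted p under 0.05 and any fold they were 7 in Hp1αΔ/Δ, 7 in Hp1βΔ/Δ, 6 in Hp1γΔ/Δ, 7 in Hp1α/βΔ/Δ, 6 in Hp1α/γΔ/Δ, 6 in Hp1β/γΔ/Δ, 10 in the triple mutant against WT set A, 9 in Setdb1Δ/Δ, 9 in the triple mutant against Hp1α/βΔ/Δ and 2 between the wild-type sets. In the same order, 45.0%, 51.1%, 46.7%, 43.4%, 46.5%, 51.7%, 81.6%, 78.9%, 80.6% and 24.8% of all genes passed at any fold. With at least 10 counts in every library the counts were 1 in the triple mutant, 1 in Setdb1Δ/Δ and 2 against Hp1α/βΔ/Δ. Scaling by library totals, chosen after seeing the data, gave 1, 1 and 2 in these and 2 in Hp1α/γΔ/Δ, and TPM values, also chosen later, gave 1 in Setdb1Δ/Δ, 2 against Hp1α/βΔ/Δ and 2 in Hp1α/γΔ/Δ. With the other wild-type set as control the counts were 1 in the triple mutant and 0 in Hp1α/γΔ/Δ. Leaving out 1 library at a time gave 1 to 2 in the triple mutant, with 1 without its replicate 3 or without replicate 2 of WT set A, and left the other counts within 1.5 times.

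Directions that turned: with the other wild-type set, Max at -0.0064 in Hp1αΔ/Δ and -0.0055 in Hp1βΔ/Δ and Pcgf6 at -0.11 in Hp1β/γΔ/Δ; in Hp1α/γΔ/Δ by TPM, Rnf2 at -0.010 and Ring1 at -0.63; in Setdb1Δ/Δ by library totals and TPM, L3mbtl2 at 0.23 and 0.48 and Rybp at 0.17 and 0.41, and by TPM Max at 0.056 and Rnf2 at 0.22; in the triple mutant against Hp1α/βΔ/Δ, L3mbtl2 at 0.23 and 0.38, Rnf2 at 0.13 and 0.058, and Tfdp1 at 0.021 by TPM. With WT set A in place of Hp1α/βΔ/Δ, the difference of contrasts was 0.026 for Pcgf6, 0.17 for L3mbtl2 and -0.41 for E2f6. The cause was not tested. Of the other values for single genes, 1299 in comparisons and 190 in differences kept direction and side of the threshold, 102 and 1 no longer passed it and 23 and 6 newly passed it. Fitting the replicate number as a block left the counts of calls at 0, 0, 0, 0, 1, 0, 2, 2, 4 and 0 and at 5 for the difference of contrasts. Same-numbered libraries did not deviate together (correlations from -0.0358 to 0.035), so the numbers do not pair them.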
